A study of Mus musculus with 5 samples.

Results

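The inhibitors EZHIP and H3.3 K27M of the Polycomb Repressive Complex 2 (PRC2) were compared by where RING1B peaks were found in mouse embryonic fibroblasts (MEFs) that express either of them. There were 311 peaks for EZHIP and 286 for H3.3 K27M, together 597 of the 1418 peaks in the 3 lists analysed. A peak was called common when it shared at least 1 base with a peak of the other list, and found alone otherwise. RING1B was profiled in 5 samples by ChIP-Seq, with crosslinked chromatin digested by micrococcal nuclease. The MEFs came from an E13.5 embryo. EZHIP cells were MEFs transduced by lentivirus with human EZHIP under the EF1a promoter and selected with puromycin, and H3.3 K27M cells were MEFs transduced in the same way with the mutant histone. Both were derived from parental cells in which loxP sites flank exons of Eed (EED floxed). That allele was therefore carried by both lines and by the control, which is labelled as parental cells. The control list, with 821 peaks, served only as a label. Libraries of H3.3 K27R cells and of an EED deletion line were not used here. Each group was a single library, so no difference below has a replicate check and no p-value was computed. Read counts and scores were not part of the lists, so the depth behind each list is unknown. The 95% intervals are Wilson binomial intervals and cover counting error over peaks only.

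RING1B is the ubiquitin ligase of PRC1, which modifies histone H2A and compacts chromatin. PRC1 is brought to chromatin in part by CBX subunits that bind H3K27me3, the mark written by PRC2, and in part by variant complexes that recognise unmethylated CpG islands. In fibroblasts Polycomb holds genes of other lineages silent, among them homeobox, PAX, forkhead and basic helix-loop-helix (bHLH) transcription factors. EZHIP, expressed in posterior fossa type A ependymoma, and H3.3 K27M, found in diffuse midline glioma, both inhibit PRC2. Setting their lists side by side asks where PRC1 peaks are called under each inhibitor.

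Some of the sequence under these peaks is shown first, since the classes differed in CpG content. Each run is the bin of 200 bases with the most CpG dinucleotides among bins covered by every list that has the peak, which in a common region is the part under both peaks, from NCBIM37, the assembly of mm9, on the forward strand and with CpG in capitals. The Barhl2 bin (chr5:106886201-106886400, over a coding exon and the adjoining intron) and the Dmrta2 bin (chr4:109649201-109649400, partly in an exon of 3010003L10Rik) stand for narrow EZHIP peaks inside wide H3.3 K27M peaks, and hold 13 and 11 CpG. The Hist3h2ba bin (chr11:58762601-58762800, in the coding exon) comes from an EZHIP peak found alone and holds 20 CpG. The Lin28b bin (chr10:45206201-45206400, at and immediately upstream of the gene start) and the bin nearest to Tmem33 (chr5:67621801-67622000, outside annotated genes) come from H3.3 K27M peaks found alone, with 35 and 21 CpG. The Speer4e bin (chr5:14951801-14952000, outside annotated genes) stands for repeated sequence, where EZHIP covered more bases in most common regions, and holds 4 CpG.
Barhl2: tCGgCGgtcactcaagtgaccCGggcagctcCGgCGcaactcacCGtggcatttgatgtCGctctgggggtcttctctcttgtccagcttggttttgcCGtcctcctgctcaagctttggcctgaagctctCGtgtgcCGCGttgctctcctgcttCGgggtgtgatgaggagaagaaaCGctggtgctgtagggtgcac
Dmrta2: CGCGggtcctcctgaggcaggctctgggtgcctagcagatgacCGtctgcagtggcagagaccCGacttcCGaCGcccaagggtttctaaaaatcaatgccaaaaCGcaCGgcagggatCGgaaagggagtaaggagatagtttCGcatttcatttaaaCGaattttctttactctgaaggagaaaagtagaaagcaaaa
Hist3h2ba: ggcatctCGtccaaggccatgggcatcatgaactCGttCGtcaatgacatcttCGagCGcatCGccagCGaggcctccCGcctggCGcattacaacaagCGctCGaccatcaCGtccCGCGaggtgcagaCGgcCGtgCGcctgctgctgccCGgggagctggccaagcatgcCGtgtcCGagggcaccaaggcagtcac
Lin28b: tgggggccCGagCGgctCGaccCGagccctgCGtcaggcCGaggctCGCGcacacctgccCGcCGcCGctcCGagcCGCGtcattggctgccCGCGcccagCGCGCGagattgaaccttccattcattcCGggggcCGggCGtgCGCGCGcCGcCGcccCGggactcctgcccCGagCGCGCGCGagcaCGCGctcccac
near Tmem33: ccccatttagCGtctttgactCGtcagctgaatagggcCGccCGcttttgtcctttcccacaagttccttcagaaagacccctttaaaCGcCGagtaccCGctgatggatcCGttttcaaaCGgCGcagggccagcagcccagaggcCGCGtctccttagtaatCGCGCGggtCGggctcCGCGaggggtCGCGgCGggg
Speer4e: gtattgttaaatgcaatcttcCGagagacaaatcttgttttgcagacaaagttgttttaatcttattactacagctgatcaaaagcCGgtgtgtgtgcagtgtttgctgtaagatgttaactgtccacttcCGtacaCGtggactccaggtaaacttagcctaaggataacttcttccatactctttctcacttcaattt

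Of the EZHIP peaks, 200 were common (64.3%, 95% interval 58.8 to 69.4%) and 111 were found alone. Of the H3.3 K27M peaks, 198 were common (69.2%, 95% interval 63.7 to 74.3%) and 88 were found alone. Counted in bases, the common peaks held 89.2% of the EZHIP-covered and 84.4% of the H3.3 K27M-covered sequence. Peaks found alone were narrower than common peaks by median in both lists. The median width was 3799 bases for common EZHIP peaks and 799 bases for those found alone. For H3.3 K27M the medians were 7199 and 2599 bases. Among peaks found alone, 63 of 111 for EZHIP and 30 of 88 for H3.3 K27M were narrower than 1000 bases.

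The share of common peaks was higher among wide peaks in both lists. Of the 109 EZHIP peaks under 1000 bases, 42.2% were common, and of the 59 such H3.3 K27M peaks 49.2% were. All 53 EZHIP peaks of 10000 bases or more had an H3.3 K27M peak. Of the 82 H3.3 K27M peaks of that width, 74 (90.2%, 95% interval 81.9 to 94.97%) had an EZHIP peak, and 8 did not. Of these 8, 7 held the starts of Lin28b, Cdx2, Lhx5, Wt1, Foxf2, Msx1 or Vax1, and 1 lay outside annotated genes.

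**Figure D1:**
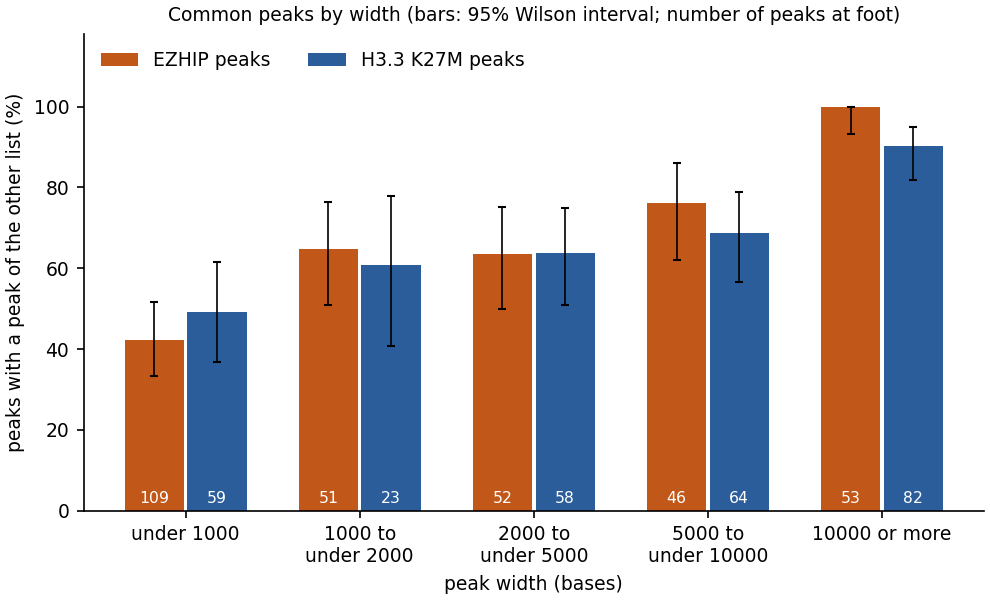
Share of peaks with a peak of the other list (percent, vertical axis) by peak width in bases, for EZHIP and H3.3 K27M peaks. Bars show the share, error bars its 95% Wilson interval, and the number at the foot of each bar the peaks in that class. The share runs from 42.2% to 100% for EZHIP and from 49.2% to 90.2% for H3.3 K27M.

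At the edge of the rule, the smallest overlap of a common pair was 399 bases, found in 27 of the 203 overlapping pairs. The peaks found alone that came nearest to the other list lay 1 base away from it. These were 6 peaks, an abutting EZHIP and H3.3 K27M peak at each of 3 places. At Ccr9, a chemokine receptor gene, an EZHIP peak of 399 bases in the intron met an H3.3 K27M peak of 799 bases that held the gene start. Of the peaks found alone, 4 of 111 for EZHIP and 4 of 88 for H3.3 K27M lay within 10000 bases of the other list, so few of them were near misses.

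The common peaks formed 195 regions. In 187 of them 1 EZHIP peak met 1 H3.3 K27M peak, in 5 a single H3.3 K27M peak spanned 2 EZHIP peaks, and in 3 a single EZHIP peak spanned 2 H3.3 K27M peaks. The regions with 2 EZHIP peaks included those at Pax2, Pax5, Six3 and Nr2e1, regulators of eye, brain, kidney or B-cell development. The 3 regions with 2 H3.3 K27M peaks had from 78.5% to 85.8% repeated sequence, measured as the percentage of 32-base words that occur elsewhere in the assembly. At Six3 the EZHIP peaks covered 798 bases and the H3.3 K27M peak 20999 bases. At Pax2 the values were 798 and 20599 bases.

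H3.3 K27M peaks were the wider ones at most common regions. They covered more bases than EZHIP peaks in 116 of 195 regions, fewer in 58 and the same number in 21. The ratio of H3.3 K27M to EZHIP covered bases had a median of 1.11, with quartiles of 0.951 and 2.13 and a range from 0.0222 to 39.1. The middle of this distribution thus lay close to equal width, and its upper arm reached far. H3.3 K27M covered at least 2 times the bases of EZHIP in 53 regions, and EZHIP at least 2 times those of H3.3 K27M in 24. Across the 187 regions with 1 peak of each list, the widths had a Spearman correlation of 0.65, given as a description because peaks of a list share a library.

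Repeated sequence separated these directions. In the 31 regions with over 50% repeated words EZHIP covered more bases in 23 and H3.3 K27M in 4, with a median ratio of 0.666. In the other 164 regions EZHIP covered more in 35 and H3.3 K27M in 112, with a median ratio of 1.29. Many of the repeated regions lacked a control peak as well, since 8 of the 31 had one, compared with 141 of the 164. How reads in repeated sequence were distributed among its copies was not tested.

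**Figure D2:**
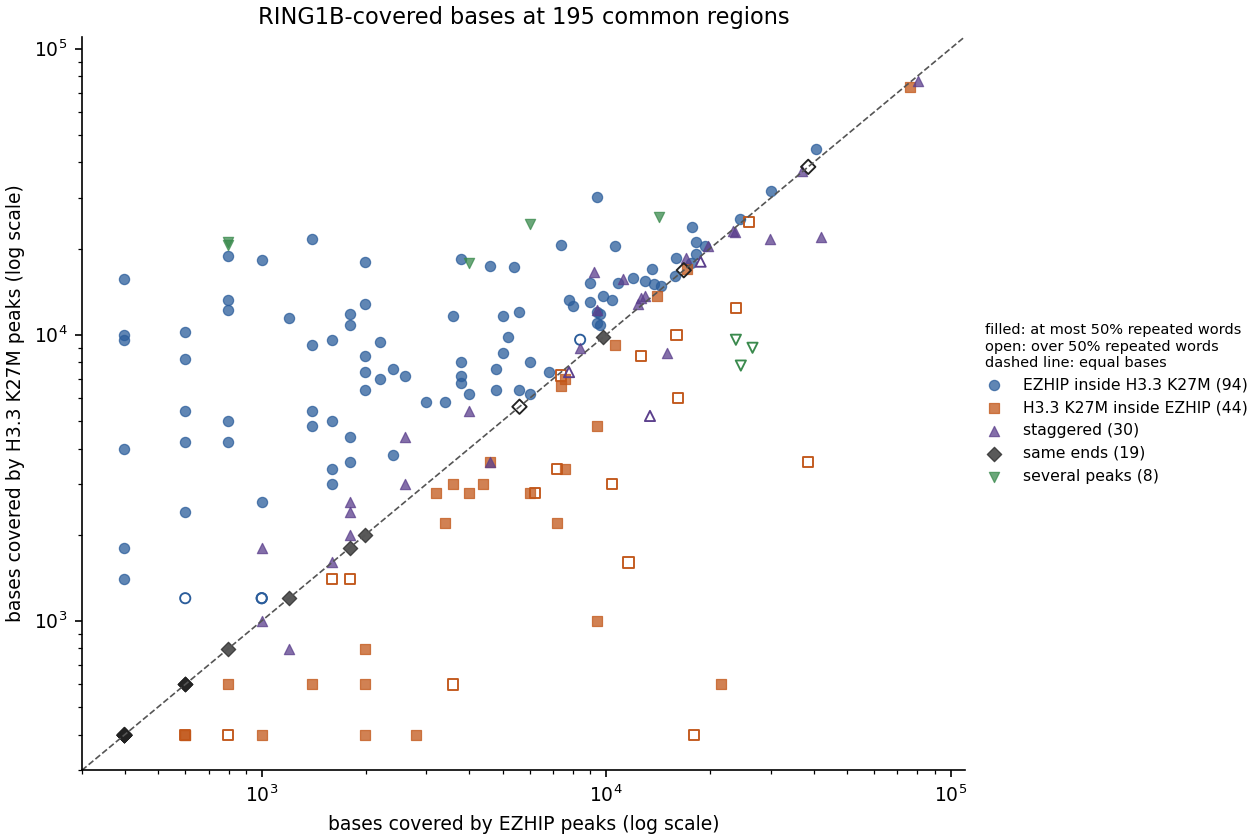
Bases covered by EZHIP peaks (horizontal axis, log scale) and by H3.3 K27M peaks (vertical axis, log scale) at each of the 195 common regions, with symbols for how the peaks lie to each other and open symbols for regions with over 50% repeated words. Points above the dashed line of equal bases (116 regions) are wider in the H3.3 K27M list, and most open symbols (23 of 31) lie below it.

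Nesting followed the same pattern. Among the 187 regions with 1 peak of each list, the EZHIP peak lay wholly inside the H3.3 K27M peak in 94 (50.3%, 95% interval 43.2 to 57.4%), and the reverse held in 44 (23.5%, 95% interval 18.02 to 30.1%). The peaks were staggered in 30 and had identical ends in 19. In regions with a protein-coding gene start, EZHIP lay inside H3.3 K27M in 67 of 104 and the reverse held in 16. In regions without such a start the counts were 27 and 28 of 83. With at most 50% repeated words, a setting added after the data were examined, they were 66 and 13 of 98 with a start and 24 and 14 of 61 without one, so EZHIP lay inside more often in both. Of the 28 regions without a start and with H3.3 K27M inside, 14 had over 50% repeated words. Where EZHIP lay inside H3.3 K27M, the median widths were 3699 and 10099 bases. The centres of the paired peaks were a median of 700 bases apart. In 16 of the 94 pairs with EZHIP inside, and in 22 of the 44 with H3.3 K27M inside, the peaks shared an edge.

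The place of the EZHIP peak in these nested pairs was also read against CpG content. In 45 of the 94 (47.9%, 95% interval 38.1 to 57.9%) it contained a bin with the maximum CpG count of the H3.3 K27M peak around it. EZHIP peaks took up 53.6% of the bins of those H3.3 K27M peaks, so the count was near the share of sequence they covered.

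The 19 pairs with identical ends were mostly narrow, with a median of 599 bases, and 2 of them held a protein-coding gene start. Of the wider ones, a pair of 38599 bases on chromosome 9, 2999801 to 3038399, held 12 predicted Gm genes and was 92.4% repeated, and a pair of 16799 bases on chromosome 8, 19755801 to 19772599, was 83.3% repeated. A pair of 9799 bases on chromosome 13, 78311401 to 78321199, had 2.04% repeated words and held no gene start. It was the widest of the identical pairs outside repeated sequence.

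Where H3.3 K27M covered more bases, the 5 highest ratios at gene starts and above a minimum width were found at developmental transcription factors. Of the common regions with a protein-coding start and at least 1000 bases in each list, the highest ratio of H3.3 K27M to EZHIP bases belonged to Barhl2, a homeobox gene of retina and brain (chromosome 5, 106879801 to 106901399). There H3.3 K27M covered 21599 bases and EZHIP 1399 bases, a ratio of 15.4. At Dmrta2, a regulator of cortical development, H3.3 K27M covered 11399 and EZHIP 1199 bases. At Foxa2, a forkhead factor of endoderm and floor plate, the values were 17999 and 1999 bases. Pdx1, which directs pancreas development, and Barx1, of stomach and tooth mesenchyme, had ratios of 6.58 and 6.56. All 5 had the EZHIP peak inside the H3.3 K27M peak, a control peak, and under 2% repeated words. The order depends on the minimum and on how a base is counted, because widths are end minus start and the lists' ends lie 1 base before a multiple of 200. Nkx2-1, with 999 EZHIP and 18199 H3.3 K27M bases (ratio 18.2), fell just short and would lead if ends were inclusive.

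The lowest ratios lay elsewhere. Speer4e, of a testis-expressed gene family, had 38599 EZHIP and 3599 H3.3 K27M bases (chromosome 5, 14923601 to 14962199, ratio 0.0932). At 4930467E23Rik the values were 11599 and 1599 bases and at Gm15319 26599 and 8998 bases. The region of Sp110 and Sp140, genes of nuclear body proteins, had 16199 and 5999 bases. All 4 had from 68.9% to 85.8% repeated words and no control peak. Sp9, a zinc-finger factor of limb and forebrain, was the only one of these 5 outside repeated sequence, with 9399 EZHIP and 4799 H3.3 K27M bases (chromosome 2, 73107001 to 73116399) and a control peak. B4galnt2, a glycosyltransferase gene with 9399 EZHIP and 999 H3.3 K27M bases (ratio 0.106), 10.1% repeated words and a control peak, missed the minimum by 1 base and would be the second lowest with inclusive ends.

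The widest common regions outside the Hox clusters and outside repeated sequence were almost equally wide in 2 of 3 cases. At Sfi1, which encodes a centrosomal protein and whose region overlaps Drg1 (chromosome 11, 3024001 to 3099999), EZHIP covered 75999 and H3.3 K27M 73599 bases, with 18.5% repeated words and no control peak. At Zdbf2, an imprinted gene (chromosome 1, 63293601 to 63325399), the values were 29999 and 31799 bases. Pax6, a master regulator of eye and forebrain development, departed from this, with 9399 EZHIP and 30199 H3.3 K27M bases (chromosome 2, 105498801 to 105528999).

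Position was then read against gene starts. A protein-coding gene start lay in 110 of the 195 common regions (56.4%, 95% interval 49.4 to 63.2%), and any annotated start in 124. For peaks found alone, a protein-coding start lay in 29 of 111 for EZHIP (26.1%, 95% interval 18.9 to 35.0%) and 28 of 88 for H3.3 K27M (31.8%, 95% interval 23.0 to 42.1%), intervals that overlap. The gap between common regions and peaks found alone held only for starts inside them. When any annotated start within 5000 bases counted, the share was 74.9% in common regions. Peaks found alone then reached 77.3% in the H3.3 K27M list and 70.3% in the EZHIP list. A joined region is also at least as long as each peak in it. Counted over single peaks, a protein-coding start lay in 71 of 200 common EZHIP peaks (35.5%, 95% interval 29.2 to 42.3%) and 104 of 198 common H3.3 K27M peaks (52.5%, 95% interval 45.6 to 59.4%). Among peaks found alone of at least 1000 bases the counts were 17 of 48 for EZHIP (35.4%) and 26 of 58 for H3.3 K27M (44.8%). Taken gene by gene, the start lay in peaks of both lists for 92 of 22350 protein-coding genes, or 0.412%. It lay in the EZHIP list only for 41 (0.183%) and in the H3.3 K27M list only for 74 (0.331%). These percentages are the background for the gene lists below. Of the 41 EZHIP-only starts, 29 were in peaks found alone. Of the 74 H3.3 K27M-only starts, 46 were in common regions, where an EZHIP peak was near but did not reach the start.

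In those common regions the EZHIP peak lay in the direction of the gene body more often than upstream. For 43 gene symbols with an H3.3 K27M-only start in a common region, the nearest EZHIP peak began downstream of the start in 32 and ended upstream in 11, at a median distance of 1620 bases. For the 12 symbols with an EZHIP-only start, the H3.3 K27M peak was downstream in 5 and upstream in 7. Reach to either side was measured in the 88 regions with 1 peak of each list and exactly 1 protein-coding start, which leaves out pairs with several starts such as those at HoxC and HoxD. In 51 of them the start lay inside both peaks, and the H3.3 K27M peak reached farther upstream in 33 and the EZHIP peak in 12. Downstream the counts were 33 and 11. The median difference was 200 bases upstream and 400 bases downstream. H3.3 K27M peaks thus extended beyond EZHIP peaks on both sides, by little at most of these 51 starts. The 51 leave out starts that 1 of the peaks did not reach. Of the 88 starts, 33 lay in the H3.3 K27M peak only and 4 in the EZHIP peak only.

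**Figure D3:**
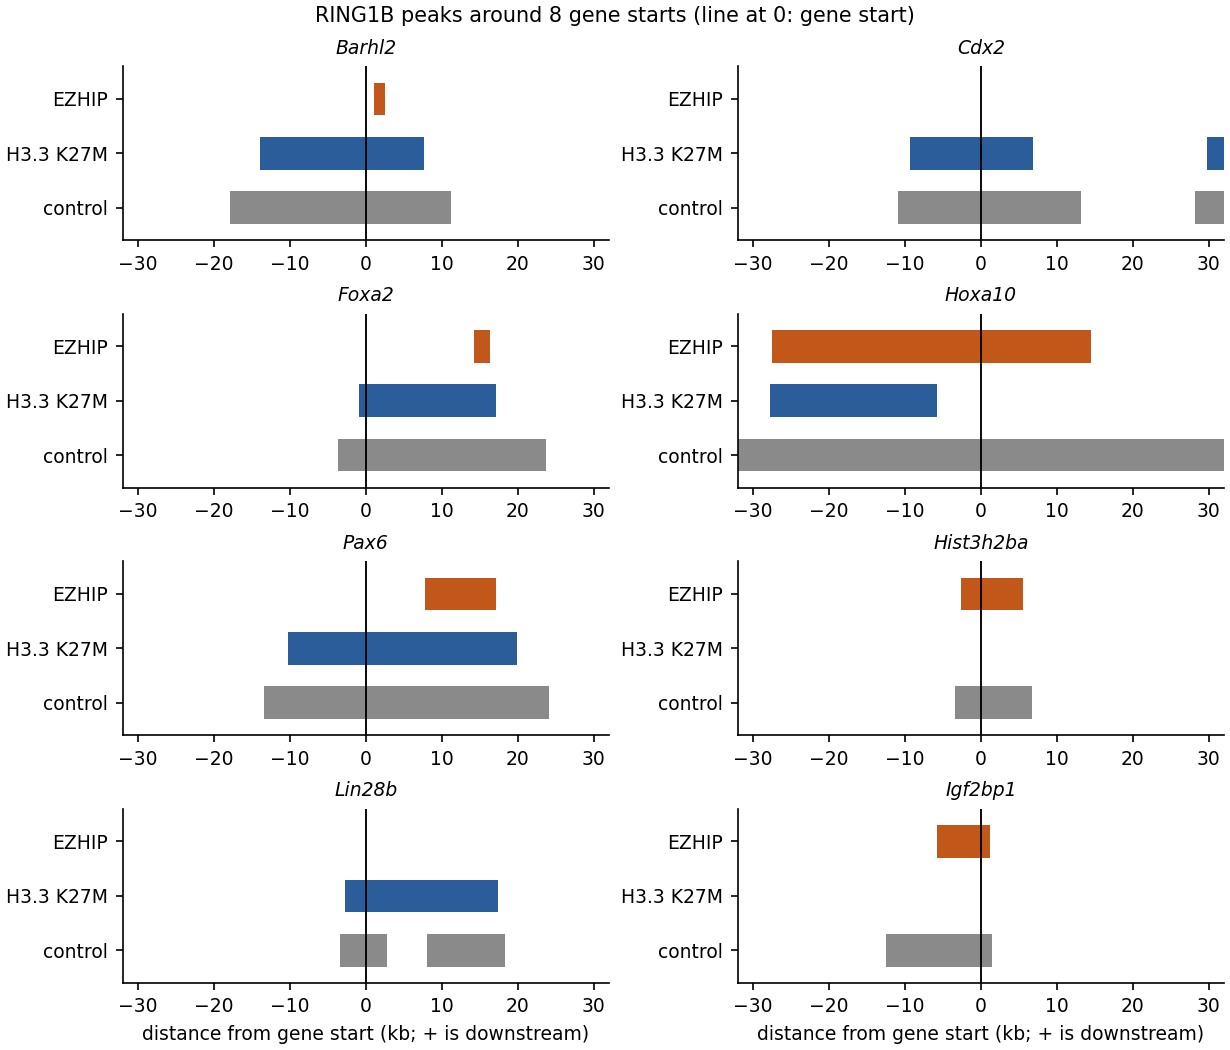
EZHIP, H3.3 K27M and control RING1B peaks around 8 gene starts, drawn to scale against the distance from the gene start in kb, with the direction of transcription to the right. Barhl2, Foxa2 and Pax6 have a short EZHIP peak downstream of the start inside a longer H3.3 K27M peak, Lin28b and Cdx2 have no EZHIP peak in view, Hist3h2ba and Igf2bp1 have no H3.3 K27M peak, and at Hoxa10 the EZHIP and control peaks reach the start and the H3.3 K27M peak does not.

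Transcription factor genes were frequent at starts in both lists and at H3.3 K27M-only starts, and less so at EZHIP-only starts. Of 321 annotated genes in 10 lists of developmental transcription factors, 55 (17.1%) had the start in peaks of both lists, 50 (15.6%) in the H3.3 K27M list only and 6 (1.87%) in the EZHIP list only, against the background of 0.412%, 0.331% and 0.183%. Read the other way, these lists accounted for 50 of 72 gene symbols with an H3.3 K27M-only start (69.4%, 95% interval 58.0 to 78.9%) and for 6 of 41 with an EZHIP-only start (14.6%, 95% interval 6.88 to 28.4%). Among starts in both lists the share was 55 of 92 (59.8%). Without peaks of more than 50% repeated words, a setting added after the data were examined, the shares were 55 of 73 (75.3%) in both lists, 50 of 72 (69.4%) in H3.3 K27M only and 6 of 38 (15.8%) in EZHIP only. Genes that share a peak are not independent of each other, which the intervals over genes do not cover. The gene lists were chosen with earlier results of these data known, so these shares are a description and not a test. Of the 50 H3.3 K27M-only genes, 20 were in peaks found alone and 30 in common regions, and 26 had an EZHIP peak within 5000 bases of the start. The class therefore combined genes without an EZHIP peak and genes where the EZHIP peak stopped short. When a start within 5000 bases of a peak sufficed, 89 genes of all 15 lists were in both lists, 45 in H3.3 K27M only and 18 in EZHIP only, compared with 55, 50 and 8 for starts inside a peak.

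The common regions that held a start from these lists were 74, all with a control peak. H3.3 K27M covered more bases in 65 and EZHIP in 9, with a median ratio of 1.43 and median widths of 13499 and 7899 bases. In 29 regions with other protein-coding starts and at most 50% repeated words the counts were 20 and 8, with a median ratio of 1.35.

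**Figure D4:**
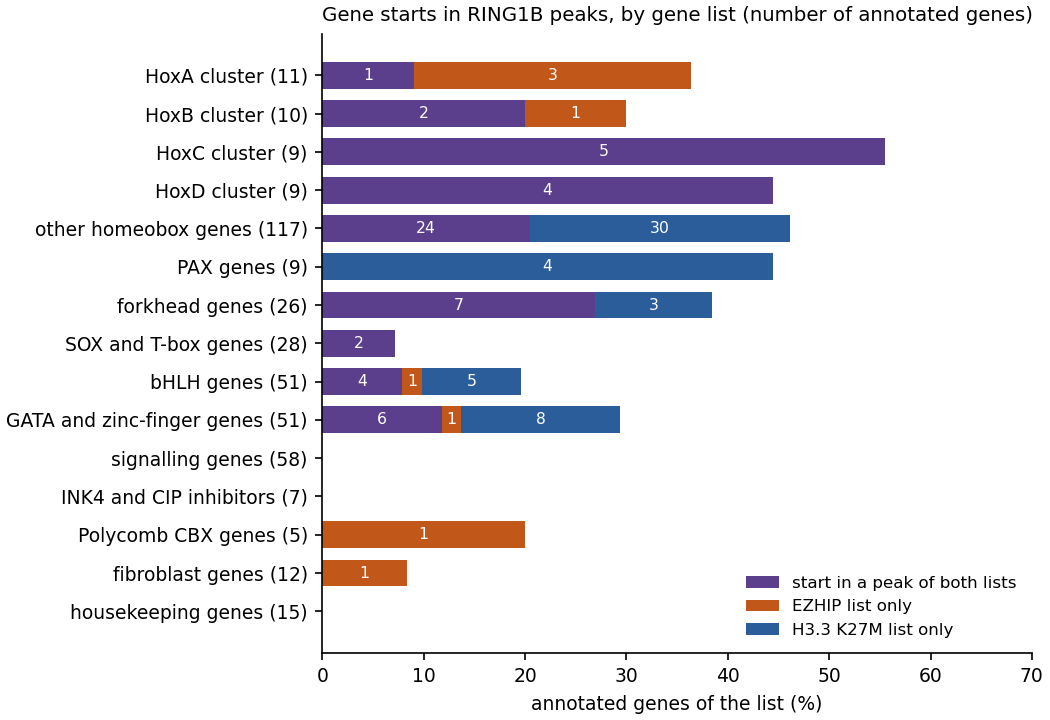
Percentage of the annotated genes of each list (horizontal axis) whose start lay in a peak of both lists, of the EZHIP list only or of the H3.3 K27M list only, with the number of genes printed in each bar and the size of the list in brackets. The Hox clusters have no H3.3 K27M-only start, while 30 homeobox genes outside them do.

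The Hox clusters, which pattern the body axis, had no H3.3 K27M-only start. Of 39 Hox genes, 12 had the start in both lists, 4 in the EZHIP list only and none in the H3.3 K27M list only. The 4 were Hoxa9, Hoxa10 and Hoxa11, all in 1 EZHIP peak, and Hoxb8, in another, so these genes rest on the extent of 1 peak at each cluster. At HoxA the EZHIP peak spanned 41999 and the H3.3 K27M peak 21999 bases, and the starts of Hoxa9 to Hoxa11 lay from 388 to 15513 bases beyond the H3.3 K27M peak. Between the outermost starts of each cluster, EZHIP peaks covered 33.6% of HoxA and 25.1% of HoxB, and H3.3 K27M peaks 13.9% and 19.8%. In HoxC the shares were 63.6% and 64.5%, and in HoxD 24.3% and 26.7%. Coverage was thus larger for EZHIP at HoxA and HoxB and nearly the same at HoxC and HoxD.

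Homeobox genes outside the Hox clusters had starts in both lists or in the H3.3 K27M list only. Of 117 annotated members, 24 had the start in both lists, 30 in the H3.3 K27M list only and none in the EZHIP list only. Chromosome 5 held 12 of the 30, out of 16 annotated members there, and all other chromosomes together 18 of the remaining members. On chromosome 5, H3.3 K27M also covered more bases in all 15 common regions with few repeats. The same held for all such regions of chromosomes 4, 8 and 17, among others. The 30 included Nkx2-1, Nkx2-5, Nkx3-2 and Nkx6-1, regulators of lung and thyroid, heart, skeleton and pancreas. At Nkx2-1 an H3.3 K27M peak of 18199 bases surrounded an EZHIP peak of 999 bases that lay 4496 bases from the start. Others with a nearby EZHIP peak were Alx1, Barhl2, Barx1, Bsx, Dmbx1, Emx1, En2, Gsx2, Hmx3, Pdx1, Pitx1, Pou4f1, Six3 and Tlx1. Those in H3.3 K27M peaks found alone were Barx2, Cdx2, Dlx4, En1, Gbx1, Gsc2, Gsx1, Lhx5, Msx1, Nkx1-1, Onecut3 and Vax1, with peaks from 399 to 16199 bases. Members in both lists included Isl1 (15999 EZHIP and 18599 H3.3 K27M bases), a motor neuron and heart factor, and Otx2 (7399 and 20599 bases), a forebrain factor.

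Other families had fewer starts in either list by count, in shorter gene lists than that of the homeobox genes outside the Hox clusters. As a share, H3.3 K27M-only starts were 44.4% of PAX genes and 25.6% of those homeobox genes. Of 9 PAX genes, 4 had an H3.3 K27M-only start, namely Pax2, Pax5, Pax6 and Pax7, and the other 5 had a start in neither list. All 4 lay in common regions, with the EZHIP peak from 1083 to 7748 bases away. Of 26 annotated forkhead genes, 7 were in both lists and Foxa2, Foxd4 and Foxf2 were H3.3 K27M-only. Of 51 bHLH genes, 4 were in both lists and 5 were H3.3 K27M-only, namely the neural factors Atoh1, Neurod2, Neurog1 and Olig3 and the mesenchymal factor Tcf21. Hey2, an effector of Notch signalling, was the EZHIP-only bHLH gene, in a peak of 399 bases. Of 51 GATA and other zinc-finger genes, 6 were in both lists, 8 were H3.3 K27M-only (Bcl11a, Fezf1, Fezf2, Insm1, Prdm6, Prdm8, Wt1 and Zic5) and Osr2, of palate and limb, was EZHIP-only. Of 28 SOX and T-box genes, 2 were in both lists, namely Sox21 and Tbx20, and none was in 1 list only.

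The remaining lists held few peaks. None of 58 annotated signalling genes, 7 INK4 and CIP cell cycle inhibitors and 15 housekeeping genes had the start in a peak of either list. Of 5 Polycomb CBX genes, Cbx2, a chromatin-binding subunit of PRC1, had its start in an EZHIP peak of 599 bases found alone. Of 12 fibroblast genes, Pdgfra, a growth factor receptor of mesenchymal cells, had its start in an EZHIP peak of 599 bases found alone. The lists give peak positions and no expression, so the fibroblast identity of the cells could not be checked against marker expression here.

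The H3.3 K27M peaks found alone were led by wide peaks over developmental genes. The widest lay at Lin28b, an RNA-binding repressor of let-7 microRNA maturation, and spanned 20199 bases (chromosome 10, 45188801 to 45208999). The next spanned 16799 bases outside annotated genes, 29205 bases from the start of Tmem33 (chromosome 5, 67605801 to 67622599). Cdx2, of trophectoderm and intestine, followed with 16199 bases (chromosome 5, 148112001 to 148128199). Lhx5, a forebrain LIM-homeobox gene, had 14199 bases (chromosome 5, 120875801 to 120889999) and Wt1, of kidney and gonad, 13399 bases (chromosome 2, 104961601 to 104974999). All 5 had a control peak, and the nearest EZHIP peak was between 26201 bases away, at Cdx2, and 1.01e+06 bases away, at Lin28b. Genes outside the lists, chosen after their values were seen, were Gad2, which makes the transmitter GABA (4599 bases), Npy, a neuropeptide gene (2999 bases), and the transcription factor genes Rfx4 (6799 bases) and Tcfap2e (4399 bases).

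The EZHIP peaks found alone were narrower. The widest 2 spanned 8199 bases each. The first lay within Plag1, a zinc-finger growth regulator, and ended 171 bases from its start (chromosome 4, 3857201 to 3865399). The second held Hist3h2ba, a histone H2B gene (chromosome 11, 58759801 to 58767999), part of a multigene family. D19Ertd737e had a peak of 7199 bases (chromosome 19, 60302401 to 60309599), Igf2bp1, an mRNA-binding protein gene, one of 6999 bases (chromosome 11, 95866001 to 95872999), and a peak of 6399 bases, 43.0% repeated, lay in an exon 49096 bases from the start of Pisd (chromosome 5, 33072801 to 33079199). The nearest H3.3 K27M peak was between 89001 bases away, at Igf2bp1, and 2.49e+07 bases away, at Hist3h2ba. Other genes in this class, chosen after their values were seen, were the synaptic gene Rims2 (5199 bases), Chn1, of axon guidance (5199 bases), the chromatin remodeller Chd7 (4999 bases), the WNT inhibitor Wif1 (4799 bases) and the G1 kinases Cdk6 (3199 bases) and Cdk4 (599 bases).

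The control label differed between the classes. A control peak lay at 81 of the 88 H3.3 K27M peaks found alone (92.0%, 95% interval 84.5 to 96.1%), at 74 of the 111 EZHIP peaks found alone (66.7%, 95% interval 57.5 to 74.7%) and at 149 of the 195 common regions (76.4%, 95% interval 69.98 to 81.8%). All 58 H3.3 K27M peaks found alone of at least 1000 bases had one, compared with 30 of 48 such EZHIP peaks. Without regions of over 50% repeated words the common regions reached 86.0%. Of the 7 H3.3 K27M and 37 EZHIP peaks found alone that lacked a control peak, 1 and 10 had over 50% repeated words. At common regions with a control peak H3.3 K27M was the wider in 110 of 149, and at those without one in 6 of 46.

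CpG dinucleotides were more frequent under the peaks than over the genome. Bins of 200 bases held a mean of 1.67 CpG over the autosomes and the X chromosome, and 1.01% of them held 10 or more. Bins covered by both lists had a mean of 5.38 CpG, and 17.5% of them held 10 or more. In common regions, bins covered by H3.3 K27M only had a mean of 6.48 and those covered by EZHIP only 2.87. Without repeated peaks the latter rose to 4.92, so much of the low value came with repeated sequence. Bins in peaks found alone had means of 7.29 for H3.3 K27M and 6.27 for EZHIP, and of 7.24 and 7.10 without repeated peaks. A bin with 10 or more CpG was present in 75 of 88 H3.3 K27M peaks found alone (85.2%, 95% interval 76.3 to 91.2%) and in 56 of 111 EZHIP peaks found alone (50.5%, 95% interval 41.3 to 59.6%). Among peaks of at least 1000 bases the counts were 53 of 58 and 29 of 48, so the difference was not limited to narrow peaks. These counts were not matched for width, and H3.3 K27M peaks found alone were the wider (medians 2599 and 799 bases). Per bin of peaks found alone, without repeated peaks, 27.8% for H3.3 K27M and 24.2% for EZHIP held 10 or more CpG. Of all bins of the EZHIP list 72.8% were also covered by H3.3 K27M, and of those of H3.3 K27M 57.3% were also covered by EZHIP.

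The classes were unevenly spread over chromosomes. On chromosome 15, 11 of 14 EZHIP peaks were found alone, and on chromosome 10, 14 of 23, whereas on chromosome 6 it was 1 of 17. For H3.3 K27M the highest count was 12 of 26, on chromosome 2, followed by 9 of 31 on chromosome 5. The EZHIP peaks found alone on chromosome 10 included those at Zdhhc17, Cpm, Wif1 and Cdk4, which followed each other between 110447001 and 126500599 with no H3.3 K27M peak among them. On chromosome 15 they included Osr2, Rims2 and Tmem65, between 35223001 and 58655199. Chromosome 5 carried 15 common regions with at most 50% repeated words, and H3.3 K27M covered more bases in all 15, with a median ratio of 3.70. The same held for all 13 such regions of chromosome 4 (median ratio 1.80), all 5 of chromosome 17 (3.18) and all 4 of chromosome 8 (6.13). On chromosome 2 the median over 13 such regions was 1.00, and on chromosome 11 it was 1.01 over 12. Copy number of these chromosomes in the 2 lines was not tested.

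**Figure D5:**
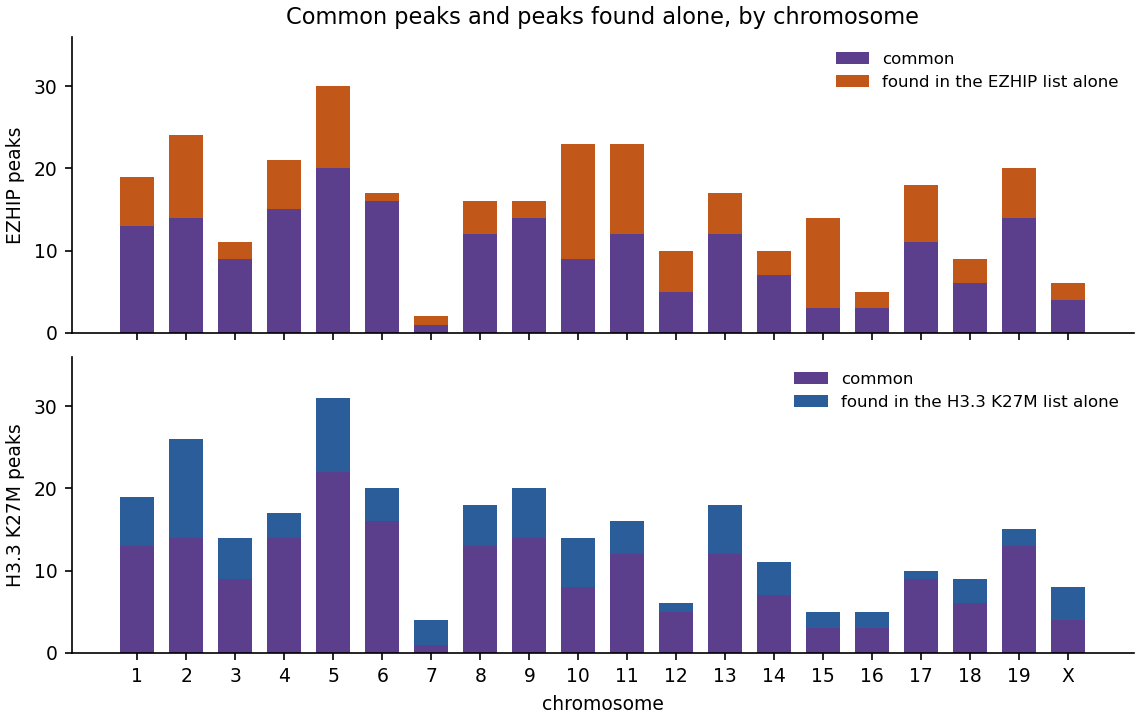
Number of EZHIP peaks (upper panel) and H3.3 K27M peaks (lower panel) on each chromosome, split into common peaks and peaks found alone. EZHIP peaks found alone are most numerous on chromosomes 10 (14 peaks), 11 and 15 (11 peaks each), and H3.3 K27M peaks found alone on chromosome 2 (12 peaks).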

How the data were processed

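RING1B ChIP-Seq (Active Motif antibody) was performed in MEFs with 1 library per group. According to the study's methods, the authors used bowtie1 to align reads to mm9 and a spike-in genome (Bowtie 1.0.0 in the submitters' processing notes) and called broad peaks with MOSAiCS-HMM. Each deposited list held only chromosome, start and end, with neither a score nor a count per peak, so depth could not be adjusted for. The stated minimum peak size was 1000, while both lists held peaks of 399 bases. Width was end minus start and positions are 1-based. Ends lie 1 base before a multiple of 200, so peaks of 999 bases miss a minimum of 1000 that inclusive ends would meet. Lists were intersected with pandas 2.3.3 and numpy 2.4.6 under Python 3.11.15, words were counted with numba 0.67.0, intervals came from scipy 1.17.1 and plots from matplotlib 3.10.9. Gene starts were the 5′ ends of 37252 genes in GENCODE vM1 (NCBIM37), 22350 of them protein-coding. Of 421 listed genes 415 were annotated. Repeated sequence was the percentage of 32-base words, taken every 50 bases, found more than once. Overlap and word code were tested on simulated data. Genes were named when a listed gene's start lay in exactly 1 list, and for the 5 highest and 5 lowest width ratios, the 5 widest peaks found alone per list, the 3 widest common regions and pairs with identical ends. Members and lists were chosen with earlier results of these data known. Alternatives were minimum width, equal numbers of peaks, joining, autosomes, repeats, overlap rules and gene definition.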

Additional observations from a re-analysis of the deposited data

How the results depend on the processing

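The 13 values compared across settings were recomputed 56 times under 10 alternatives, of which 6 recomputed values, those of the gene lists by width and by repeats, were added after the data were examined. Shares outside their 95% interval, and ratios or counts that moved by over 1.5 times, counted as moved. No median width ratio fell below 1, 41 values stayed within these limits and 15 moved. Each share was compared only with its own main value, but the order of the 2 common shares was not stable. In the main setting H3.3 K27M had the larger one (69.2% against 64.3%). With peaks of at least 1000 bases EZHIP did (71.3% against 63.9%). Equal numbers of the widest peaks left EZHIP slightly ahead (65.0% against 64.7%). H3.3 K27M stayed ahead under every other alternative tried on these shares. With an overlap of 50% of both peaks, the common share was 36.3% for EZHIP and 39.5% for H3.3 K27M. With peaks of at least 1000 bases, where narrower peaks were removed from both lists before classes were assigned again, so that a peak whose partner was narrow counts as found alone, 71.3% of EZHIP peaks were common, gene starts lay in 73.2% of common regions and 58.5% of H3.3 K27M peaks found alone, a control peak lay at 83.1% of common regions and 96.3% of H3.3 K27M peaks found alone, and 5 listed genes were EZHIP-only. Without repeated peaks, a control peak lay at 85.9% of common regions. Gene starts within 5000 bases lay at 74.9% of common regions, and of the peaks found alone at 70.3% for EZHIP and 77.3% for H3.3 K27M, with 89 listed genes in both lists, 18 EZHIP-only and 45 H3.3 K27M-only, so the classes of genes depend on where a peak ends. Protein-coding starts lay in 56.4% of common regions. The first settings enter fewer peaks or a stricter overlap by construction, and no other cause was tested. The median width ratio ranged from 1.09 to 1.28. No paired analysis was possible because each group is 1 library and the results come from no test.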
